A study of Homo sapiens with 4 samples.

Results

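The genes described are 9 immune checkpoint and immune evasion genes of glioma cells, namely *CD274*, *PDCD1LG2*, *CD276*, *CD47*, *NT5E*, *LGALS1*, *LGALS3BP*, *LGALS9* and *PVR*. They were chosen by name, for what their products do on or around a tumour cell, from 46660 gene identifiers in the expression table. The choice was made with earlier results of these data known. Their levels were measured by mRNA sequencing in U87MG and U251MG, both of them established cell lines derived from human glioblastoma. Each cell line gave 2 libraries. One came from control cells infected with the empty vector (pGreen) lentivirus, which the sample titles call shControl, and the other from cells infected with lentivirus carrying a short hairpin RNA against *FLI1* (shFLI1). *FLI1* encodes an ETS family transcription factor. All 4 groups were puromycin-selected pools of infected cells kept in the same serum-containing medium, and the labels name no added cytokine or immune cell. The labels do not say which hairpin was used, and nothing says that libraries came from separate cultures. The comparison asked how RNA for these immune ligands differed once *FLI1* was knocked down.

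Checkpoint ligands are molecules on tumour cells that hold back an immune response by engaging receptors on lymphocytes or macrophages. *CD274* encodes PD-L1 and *PDCD1LG2* encodes PD-L2, the ligands of the inhibitory T cell receptor PD-1. *CD276* encodes B7-H3, a B7 family protein abundant on many tumours. CD47 binds SIRP alpha on macrophages and acts as a signal against phagocytosis. *NT5E* encodes CD73, an enzyme on the cell surface that makes adenosine from AMP, and extracellular adenosine restrains T cells. *LGALS1* and *LGALS9* encode galectins, secreted proteins that bind sugars on lymphocyte receptors, and *LGALS3BP* encodes a secreted glycoprotein that galectins bind. *PVR* encodes CD155, which binds both the inhibitory receptor TIGIT and the activating receptor CD226. Interferons are well known to raise PD-L1, in part through the transcription factor IRF1. In glioma these molecules are studied as ways in which tumour cells keep lymphocytes and macrophages in check.

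Library totals, as summed counts over genes, ranged from 12229780 to 28891055, and each shFLI1 library was deeper than its control, by 1.74 times in U87MG and 1.60 times in U251MG. Levels are given in CPM, which are counts scaled to library size, after scaling between libraries by TMM, a method that takes most genes as unchanged. The targeted gene *FLI1* had 9.34 CPM in the U87MG control and 2.34 CPM after shFLI1, and 12.1 CPM in the U251MG control and 3.71 CPM after shFLI1. *FLI1* therefore stood at 25.0% and 30.6% of its control level. Of 12 glial and glioma markers, *VIM*, *CD44*, *NES* and *SOX2* were among those well counted in all 4 libraries. *OLIG2*, *BCAN* and *S100B* had at most 2, 4 and 11 counts. Of 16 leukocyte markers, 10 were matched, and 6 of these had 3 or fewer counts in every library. *PTPRC*, which encodes the pan-leukocyte protein CD45, had 0, 0, 1 and 5 counts. The summed level of the leukocyte markers was 5.50 CPM in the U87MG control, 1.53 CPM in U87MG shFLI1, 10.7 CPM in the U251MG control and 3.11 CPM in U251MG shFLI1. Most of the control sums came from *CD68*, a lysosomal gene used as a macrophage marker, with 47, 12, 163 and 14 counts in the same order. *CD68* fell in the shared test described next (log2 fold change -3.67, adjusted p = 0.00354). *CD14* (10, 17, 12 and 31 counts) and *CSF1R* (5, 3, 12 and 39 counts) did not pass that test. By CPM, both were lower after shFLI1 in U87MG and higher in U251MG. The part of these markers in the results below was not tested. In bulk RNA, fewer cells that carry a transcript and less of it per cell cannot be told apart.

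With 1 library per group, a fold change in either cell line could not be checked against replicates. Its 95% interval therefore covers counting error only. It also takes reads as independent, which PCR copies are not, so that it may be too narrow. A gene was counted as past 2-fold if its level differed by more than that and it had at least 10 counts in 1 library of the cell line. The replicated test took both cell lines as replicates of the knockdown, in edgeR, the cell line being a block term, and left 1 residual degree of freedom. Its p-values were adjusted by the Benjamini-Hochberg method over 16649 genes, and "rose" and "fell" are used for genes past an adjusted p of 0.05. All 9 genes passed the filters on low counts.

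*LGALS9* and *NT5E* fell after *FLI1* knockdown, and they were also the 2 genes that lay more than 2-fold lower in both cell lines. *LGALS9* stood at 15.0% of control in U87MG and 8.71% in U251MG, and *NT5E* at 38.4% and 19.8%. *CD276* differed by less than its counting error in both cell lines. *CD274* was higher than control in U87MG and lower in U251MG. The other genes did not pass the shared test, and their log2 fold changes were below 0 in both cell lines, except that in U87MG *CD47* turned to 0.15 on FPKM and *PVR* to 0.13 with scaling to total counts.

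In U87MG, 3 of the 9 genes were more than 2-fold lower after shFLI1 (*NT5E*, *LGALS1* and *LGALS9*), against 4.45% of the 17355 genes tested, and 0 were more than 2-fold higher, against 10.0%. In U251MG, 4 of 9 were more than 2-fold lower (*PDCD1LG2*, *NT5E*, *LGALS3BP* and *LGALS9*), against 4.19% of the 18222 genes tested, and 0 were higher, against 5.57%. The 2 genes past 2-fold lower in both cell lines compare with 1.45% of the 16384 genes tested in both. The median log2 fold change of the 9 genes was -0.46 in U87MG and -0.98 in U251MG, beside 0.059 and 0.041 over all genes tested. In the shared test 2 of 9 fell, where 2.14% of all genes tested did. None rose (0 of 9), where 0.919% of all genes did. At an unadjusted p below 0.05, 6 of the 9 were lower and 0 higher, beside 8.76% and 7.77% of all genes tested. DESeq2 with the same design called 3 lower and 0 higher, the addition being *LGALS3BP*, beside 2.08% and 0.619% of the 15035 genes to which it gave an adjusted p. The shares of all genes in this paragraph hold for the counts of the other lists as well. The 9 genes and the lists were chosen with earlier results of these data known. The shares are therefore a backdrop and not a test of any group of genes.

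**Figure D1:**
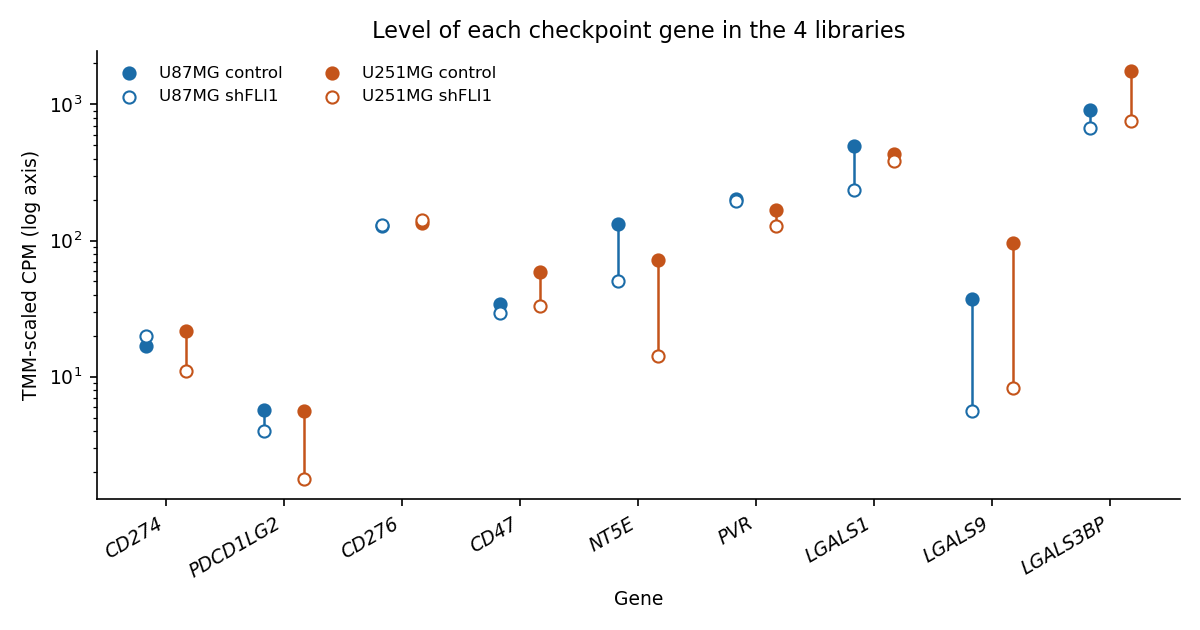
TMM-scaled CPM on a log axis for each of the 9 checkpoint genes (horizontal axis) in the 4 libraries, with filled points for control, open points for shFLI1 and a line joining the 2 libraries of a cell line. The longest lines are those of *LGALS9*, from 37.1 to 5.57 CPM in U87MG and from 95.5 to 8.32 CPM in U251MG, while the points of *CD276* lie between 129 and 141 CPM.

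Promoters of these genes were searched for interferon response elements, since *STAT2*, *IRF1* and *IRF9* fell in the same libraries (values below). Promoter sequences of GRCh38.p14 from RefSeq were matched for 7 of the 9 genes, and *PDCD1LG2* and *LGALS1* had none. The core of the interferon-stimulated response element was searched on both strands as GAAANNGAAA, over windows from 250 bases before to 50 bases after the start site. It was found in 3 of the 7 genes, among them *CD274* and *LGALS9* but not *NT5E*, and in 3.57% of all 35116 promoters. In the *CD274* window 2 overlapping matches began 208 and 202 bases before the start, and in *LGALS9* 1 match began 9 bases before the start and ran up to it. The sequences of *LGALS9* and *CD274* are shown for these matches and that of *NT5E* because this gene fell with no match to any motif searched. Each runs 5′ to 3′ on its gene's strand, from 250 bases before to 20 bases after the start, with matches to the core in capitals.
LGALS9, chr17:27630938-27631207, plus strand: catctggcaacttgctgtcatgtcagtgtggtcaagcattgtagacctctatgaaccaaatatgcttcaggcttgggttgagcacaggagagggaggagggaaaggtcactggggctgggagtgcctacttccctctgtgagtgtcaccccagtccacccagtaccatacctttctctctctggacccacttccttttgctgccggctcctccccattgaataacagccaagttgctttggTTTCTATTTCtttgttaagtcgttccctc
CD274, chr9:5450292-5450561, plus strand: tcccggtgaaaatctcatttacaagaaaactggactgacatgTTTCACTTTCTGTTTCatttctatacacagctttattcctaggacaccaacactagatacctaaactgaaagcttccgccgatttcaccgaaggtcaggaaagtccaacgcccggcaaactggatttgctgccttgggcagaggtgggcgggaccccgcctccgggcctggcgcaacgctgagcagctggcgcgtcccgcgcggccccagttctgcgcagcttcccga
NT5E, chr6:85449833-85450102, plus strand: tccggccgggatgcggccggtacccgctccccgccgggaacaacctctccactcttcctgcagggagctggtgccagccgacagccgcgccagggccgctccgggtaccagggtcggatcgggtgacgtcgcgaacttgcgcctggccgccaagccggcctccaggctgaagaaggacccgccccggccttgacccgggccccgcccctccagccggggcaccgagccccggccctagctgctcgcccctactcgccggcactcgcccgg

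A STAT element (TTCNNNGAA, both strands) was found in the *CD274* window alone among these genes, 125 bases before the start, and in 7.66% of all promoters. The ETS family, to which FLI1 belongs, binds DNA with a GGAA core. The longer form searched, CCGGAAGT, was found in none of the 7 genes and in 4.14% of all promoters. The shorter form GGAAGT was found 3 times in the *LGALS9* window and in no other of these genes, against 22.8% of all promoters with at least 1 match. These matches describe letters in the windows and are not binding sites measured here.

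*LGALS9*, which lies on chromosome 17 from 27631188 to 27649560 of GRCh38, encodes galectin-9, a ligand of the receptor TIM-3. It had 425 counts in the U87MG control, 124 in U87MG shFLI1, 1702 in the U251MG control and 249 in U251MG shFLI1. Both shFLI1 libraries were below both controls, at 5.57 and 8.32 CPM against 37.1 and 95.5 CPM. The log2 fold change was -2.71 in U87MG (95% counting interval -3.04 to -2.44) and -3.51 in U251MG (-3.72 to -3.33). These values lay at the 0.570 and 0.340 percentiles of all genes tested in the respective cell line. In the shared test *LGALS9* fell by 3.17 on the log2 scale (SE 0.21, adjusted p = 0.000257), rank 10 by p among all genes tested. *LGALS9C*, a near-identical gene that can share reads with *LGALS9*, had 0, 0, 3 and 0 counts.

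*NT5E* lies on chromosome 6 from 85450083 to 85495784. Its level was 131 CPM in the U87MG control, 50.4 CPM in U87MG shFLI1, 71.5 CPM in the U251MG control and 14.1 CPM in U251MG shFLI1. Here too both shFLI1 libraries were below both controls, and U87MG shFLI1 came closest, at 50.4 against 71.5 CPM. The log2 fold change was -1.38 in U87MG (-1.50 to -1.27) and -2.33 in U251MG (-2.50 to -2.18). *NT5E* fell by 1.86 in the shared test (SE 0.22, adjusted p = 0.00327). The counting intervals of the 2 cell lines did not overlap, and the change in U251MG was the larger by 0.95 (counting interval of the difference, U251MG minus U87MG, -1.15 to -0.76). Such a difference between cell lines has no replicates and was not tested for any gene.

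The other secreted genes of the galectin group differed by cell line. *LGALS1*, on chromosome 22 from 37675636 to 37679802, encodes galectin-1, known for inducing death of activated T cells. It had 495 CPM in the U87MG control and 235 CPM in U87MG shFLI1, and 432 and 381 CPM in U251MG. Only the U87MG shFLI1 library stood apart, and the log2 fold change was -1.08 (-1.13 to -1.02) in U87MG and -0.18 (-0.22 to -0.14) in U251MG. The shared estimate was -0.64 (SE 0.23, adjusted p = 0.195). In U87MG, *LGALS1* was past 2-fold by a small margin, and scaling to total counts gave a log2 fold change of -0.92.

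*LGALS3BP*, on chromosome 17 from 78971255 to 78979923, showed the other order. Its level was 916 CPM in the U87MG control and 666 CPM in U87MG shFLI1, and 1756 and 753 CPM in U251MG. The U251MG control was therefore the high library, and the other 3 lay between 666 and 916 CPM. In log2 terms the change was -0.46 (-0.50 to -0.42) in U87MG and -1.22 (-1.25 to -1.20) in U251MG. The shared estimate of -0.86 (SE 0.23) had an adjusted p of 0.0946 in edgeR and 0.00234 in DESeq2, so its call depends on the tool.

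*CD274* and *PDCD1LG2* are neighbours on chromosome 9, at 5450542 to 5470554 and 5510531 to 5571282, with 39976 bases between them. *CD274* had 16.7 CPM in the U87MG control, 19.9 CPM in U87MG shFLI1, 21.7 CPM in the U251MG control and 11.0 CPM in U251MG shFLI1. The U251MG shFLI1 library was the lowest, and the other 3 lay within 16.7 to 21.7 CPM. The log2 fold change was 0.25 in U87MG (0.0045 to 0.51) and -0.98 in U251MG (-1.20 to -0.77), which falls just short of 2-fold. The shared estimate was -0.39 (SE 0.27, adjusted p = 0.528). The change in U251MG minus that in U87MG was -1.23 (counting interval -1.56 to -0.91).

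*PDCD1LG2* was the most weakly counted of the 9 genes, with 65, 88, 100 and 53 counts in U87MG control, U87MG shFLI1, U251MG control and U251MG shFLI1. In CPM these were 5.68, 3.96, 5.61 and 1.77, so that the controls were alike and both shFLI1 libraries were below them. The log2 fold change was -0.51 in U87MG (-1.0 to -0.036) and -1.61 in U251MG (-2.17 to -1.17). The shared estimate was -1.10 (SE 0.35, adjusted p = 0.152). With so few counts the interval in U87MG reached from near 0 to near 2-fold.

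*CD276*, on chromosome 15 from 73683944 to 73714514, had 129 CPM in both U87MG libraries, 135 CPM in the U251MG control and 141 CPM in U251MG shFLI1. Its log2 fold change was 0.0049 in U87MG (-0.086 to 0.097) and 0.059 in U251MG (-0.013 to 0.13). The shared estimate was 0.017 (SE 0.14, adjusted p = 0.970).

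*CD47*, on chromosome 3 from 108043091 to 108091031, had 34.3 CPM in the U87MG control and 29.3 CPM in U87MG shFLI1, and 58.7 and 32.8 CPM in U251MG. The U251MG control was the high library and the other 3 lay close together. In log2 terms the change was -0.23 (-0.41 to -0.043) in U87MG and -0.84 (-0.97 to -0.71) in U251MG. The shared estimate was -0.56 (SE 0.18, adjusted p = 0.151).

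*PVR*, on chromosome 19 from 44643910 to 44666162, had 201 CPM in the U87MG control and 196 CPM in U87MG shFLI1, and 167 and 128 CPM in U251MG. On the log2 scale shFLI1 differed from control by -0.034 (-0.11 to 0.039) in U87MG and -0.39 (-0.46 to -0.32) in U251MG. The shared estimate was -0.23 (SE 0.15, adjusted p = 0.519).

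**Figure D2:**
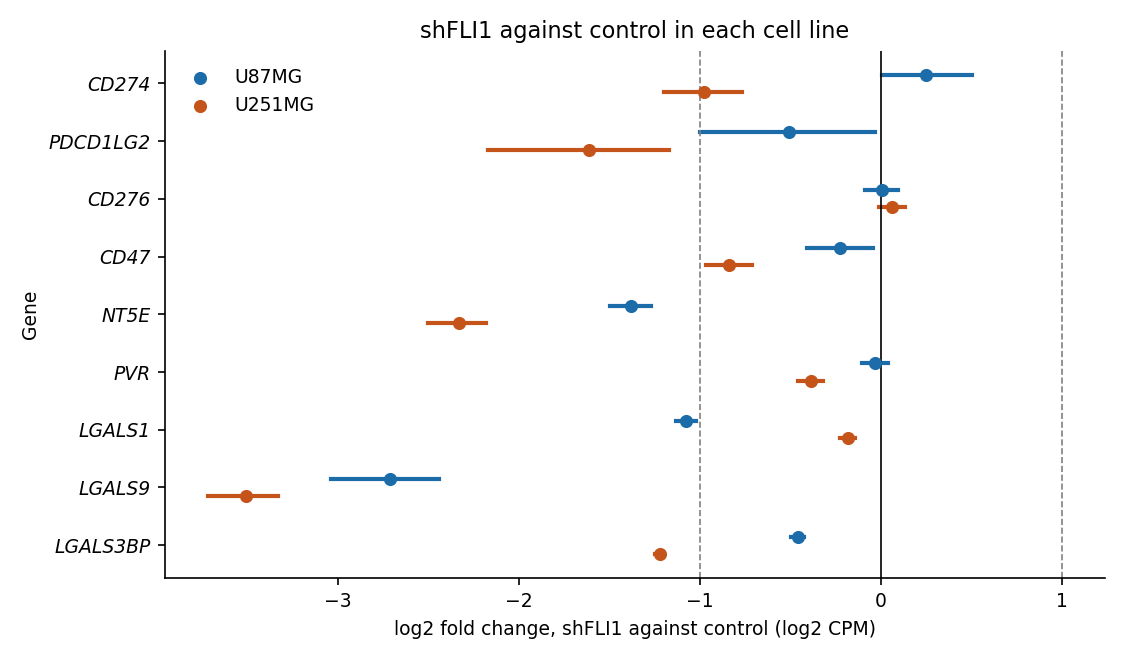
Log2 fold change of shFLI1 against control for each of the 9 checkpoint genes (vertical axis), with a point and a bar for the 95% counting interval in each cell line and dashed lines at 2-fold. *LGALS9* and *NT5E* lie beyond the lower dashed line in both cell lines, and *CD274* lies on either side of 0, at 0.25 in U87MG and -0.98 in U251MG.

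Averaged over control and shFLI1 libraries, which served as the 2 replicates of a line in the same fit, the cell lines differed in 3 of the 9 genes. *LGALS9* was higher in U251MG, by 0.94 on the log2 scale (SE 0.20, adjusted p = 0.0133), where 10.4% of all genes tested were higher in U251MG. *NT5E* was lower in U251MG, with a log2 difference of -1.41 (SE 0.21, adjusted p = 0.00304), and so was *PVR*, with -0.52 (SE 0.15, adjusted p = 0.0465), where 8.25% of all genes were lower. The call for *PVR* was lost under 5 of 6 alternatives, with adjusted p from 0.0505 to 0.194. The remaining 6 genes had adjusted p from 0.159 (*CD47*, log2 difference 0.39) to 0.910 (*CD276*, 0.030). Between the control libraries alone, the log2 difference was 1.36 for *LGALS9*, 0.94 for *LGALS3BP*, 0.78 for *CD47*, 0.38 for *CD274* and 0.074 for *CD276*. It was -0.88 for *NT5E*, -0.27 for *PVR*, -0.20 for *LGALS1* and -0.017 for *PDCD1LG2*. The counting interval included 0 for *CD276* and *PDCD1LG2* alone. With 1 control library per cell line these differences were not tested.

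Levels can be set against each other between genes only per length, for which the authors' FPKM (fragments scaled to transcript length and to mapped reads) was summed over the RNAs of each gene. Such a sum can rest on an RNA with a small part of the counts. In the U87MG control, URS00009BC2C6 held 15.0% of *CD47* counts and 8.86 of 14.3 FPKM. There, NM_001135770 held 24.1% of *PVR* counts and 35.7 of 61.7 FPKM. *LGALS1*, at 874 to 1712 FPKM, ranked first of the 9 in every library and *LGALS3BP*, at 362 to 902 FPKM, second. *PDCD1LG2* ranked last in every library, at 0.86 to 2.52 FPKM. *LGALS9* moved most in this order. It ranked 3 of 9 in the U251MG control (69.5 FPKM) and 6 after shFLI1 (6.31 FPKM), and 6 and 8 in U87MG (26.6 and 4.46 FPKM). *NT5E* ranked 5 in both U87MG libraries (37.3 and 16.0 FPKM), and 7 and 8 in U251MG (21.4 and 4.46 FPKM). *PVR* and *CD276* held places 3 to 5 throughout, between 38.6 and 62.7 FPKM. *CD47* lay between 14.3 and 25.2 FPKM, and *CD274* between 5.70 and 10.1 FPKM. Across the 4 libraries the ranges of *LGALS1* and *LGALS3BP* overlapped slightly, though *LGALS1* was the higher within every library. The order of *PVR* and *CD276* changed between libraries, and so did that of *NT5E*, *LGALS9* and *CD47*, so that these neighbours have no single order. An order within 1 library has no replicates.

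The table separates RNAs of a gene, so that the share of each could be followed, with 95% Wilson intervals that cover counting error and not the assignment of reads to RNAs. Of 58 RNAs of the 9 genes, 38 had at least 10 counts in 1 library. For 9 of these the intervals of control and shFLI1 did not overlap and the share moved the same way in both cell lines, upward for 6 and downward for 3. Shares within a gene add up to the whole, so these moves are not separate results. In *CD274*, NM_001314029 went up as NM_014143 went down, and *LGALS9* gave NM_009587 and XM_006721895 upward and XM_006721892 downward. The same count over the RNAs of all genes was not made, so 9 of 38 has no backdrop. An RNA could also enter through the arm where it was high, as XM_006721892 did with 85, 0, 55 and 0 counts.

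*CD274* was carried mainly by NM_014143, the full-length PD-L1 transcript, and otherwise by NM_001314029, a shorter coding transcript. NM_001314029 took 5.76% of *CD274* counts in the U87MG control (interval 3.25% to 10.0%, 11 counts) and 14.3% in U87MG shFLI1 (11.3% to 17.8%, 63 counts). In U251MG it took 3.89% (2.37% to 6.31%, 15 counts) and 14.6% (11.2% to 18.9%, 48 counts). The share was higher after shFLI1 in both cell lines, although the gene's level moved in different directions. In FPKM the full-length transcript stood at 4.36 and 5.27 in U87MG and at 6.07 and 2.81 in U251MG, control before shFLI1. The shorter one stood at 1.45 and 4.78 in U87MG and at 1.41 and 2.76 in U251MG. On summed FPKM the log2 fold change of *CD274*, as log2(FPKM + 1), was 0.70 in U87MG and -0.34 in U251MG, against 0.25 and -0.98 from counts.

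Among *LGALS9* RNAs the main one, NM_002308, took between 55.3% and 77.0% of counts. The share of NM_009587, which encodes the long form of galectin-9, went from 3.06% (1.80% to 5.16%) to 9.68% (5.62% to 16.2%) in U87MG and from 11.8% (10.3% to 13.4%) to 18.5% (14.2% to 23.8%) in U251MG. Its counts nonetheless were 13 and 12 in U87MG and 200 and 46 in U251MG. The predicted RNA XM_006721892 had 85 counts (20.0%) in the U87MG control and 55 (3.23%) in the U251MG control, and 0 counts in both shFLI1 libraries, where the Wilson intervals reach up to 3.00% and 1.52%, and a limit of 3 counts of the gene's total gives 2.42% and 1.2%.

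The main *CD47* RNA, NM_198793, took 76.1% (71.6% to 80.0%) and 66.1% (62.4% to 69.6%) of counts in U87MG control and shFLI1, and 73.8% (71.1% to 76.4%) and 68.1% (65.1% to 70.9%) in U251MG. For *PVR*, NM_001135769 took 9.08% (7.97% to 10.3%) and 17.7% (16.6% to 18.9%) in U87MG. In U251MG it took 9.35% (8.35% to 10.5%) and 10.7% (9.72% to 11.7%), where the intervals overlapped. The *PVR* RNA NM_001135768 went down, from 6.95% to 5.97% in U87MG and from 7.935% to 6.18% in U251MG, with intervals apart in U251MG alone. The shares of these *PVR* RNAs thus went in opposite directions. A shift toward soluble forms of CD155 as a set was not tested. *CD276* counts lay mostly on NM_001024736, at 84.1% to 96.5%. In *NT5E*, *LGALS1* and *LGALS3BP* 1 RNA held at least 91.0%, 99.9% and 98.0% of counts in every library.

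**Figure D3:**
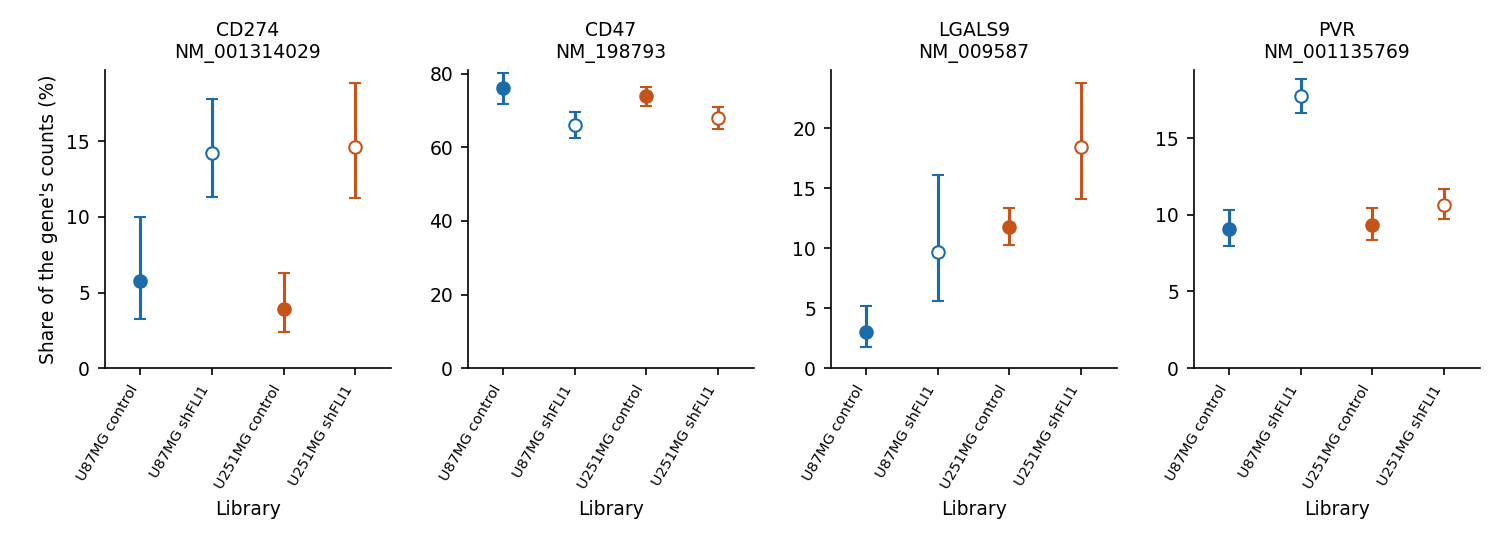
Share of a gene's counts (%, vertical axis) on 1 RNA in each library, for *CD274*, *CD47*, *LGALS9* and *PVR*, with filled points for control, open points for shFLI1 and bars for 95% Wilson intervals. The *CD274* RNA NM_001314029 moves from 5.76% to 14.3% in U87MG and from 3.89% to 14.6% in U251MG, with intervals apart in both, whereas those of the *PVR* RNA overlap in U251MG.

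A list of other ligands, mostly but not only of the B7 and TNF families, gave 21 of 23 genes matched in the table. It also holds *CD24*, *CD58*, *CD200*, *CEACAM1* and *HMGB1*, and the receptor genes *CD40* and *TNFRSF14*. Of 14 tested in the shared test, 5 fell and 0 rose. At an unadjusted p below 0.05, 7 were lower and 0 higher, and DESeq2 called 6 lower and 0 higher. The 5 were *BTN3A1*, *BTN3A2*, *BTN3A3*, *TNFSF18* and *CD70*. BTN3A proteins present phosphoantigen signals to gamma delta T cells, *TNFSF18* encodes the ligand of the costimulatory receptor GITR, and *CD70* encodes the ligand of CD27. *BTN3A2* had 23.1 and 8.00 CPM in U87MG and 47.0 and 9.75 CPM in U251MG, control before shFLI1, with a shared log2 fold change of -1.93 (adjusted p = 0.00233). *BTN3A1* and *BTN3A3* had shared log2 fold changes of -1.81 and -2.38 (adjusted p = 0.00888 and 0.00417). The BTN3A genes are near-identical in parts, and estimated counts can be split between them. *TNFSF18* went from 11.4 to 2.97 CPM in U87MG and from 117 to 48.6 CPM in U251MG (shared log2 fold change -1.54, adjusted p = 0.00510). *CD70* fell less, from 260 to 139 CPM and from 267 to 182 CPM (-0.74, adjusted p = 0.0458). Per cell line, 6 of 14 tested genes were past 2-fold lower in U87MG and 6 of 15 in U251MG, with median log2 fold changes of -0.66 and -0.65. The gene past 2-fold higher in U87MG was *VTCN1* (1.58, and -0.41 in U251MG), named after its values were seen.

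Of 16 genes of interferon signalling, which lies upstream of *CD274*, 4 fell and 0 rose (at an unadjusted p below 0.05, 4 lower and 1 higher, and in DESeq2 4 and 0). Among them were *STAT2* and *IRF9*, whose products take part in the response to type I interferon, and *IRF1*. *STAT2* had 147 and 57.3 CPM in U87MG and 212 and 74.6 CPM in U251MG. The shared log2 fold change was -1.45 for *STAT2* (adjusted p = 0.00127), -1.36 for *IRF1* (adjusted p = 0.0135) and -1.15 for *IRF9* (adjusted p = 0.00577). Receptor and kinase genes did not pass the test, and the list's median log2 fold change was -0.16 in both cell lines. *CD274* stood at 119% and 50.6% of control in libraries where *IRF1*, with 67.4 and 36.6 CPM in U87MG and 79.2 and 22.7 CPM in U251MG, was lower in both. Whether the levels of *CD274* and *IRF1* are linked was not tested.

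Genes known to act on the PD-L1 protein, such as *CMTM6*, which protects it from degradation, gave 11 of 12 matched and tested, of which 0 fell and 0 rose. At an unadjusted p below 0.05, 2 were higher and 0 lower, and DESeq2 called 0. None was past 2-fold in either cell line, with medians of 0.24 in U87MG and 0.061 in U251MG.

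Beside *NT5E*, the adenosine pathway list, which holds the enzymes, receptors and transporters of extracellular nucleotides, had 14 of 16 genes matched and 9 tested. In edgeR, at an unadjusted p below 0.05 and in DESeq2, 0 of 9 changed. *ENTPD1*, which encodes CD39, the enzyme upstream of CD73, had 4, 13, 12 and 21 counts in the 4 libraries. The receptor gene *ADORA2B* was well counted, at 112 and 111 CPM in U87MG and 118 and 96.1 CPM in U251MG. These 2 genes were named for their roles after their values were seen. Past 2-fold in U87MG were 1 gene higher (*ADA*, 2 and 16 counts) and 1 lower (*SLC29A2*, 15 and 11 counts), and in U251MG 0.

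Of the other galectins and the enzymes that build their sugar ligands, 6 of 9 matched genes were tested, of which *LGALS3* fell (shared log2 fold change -0.72, adjusted p = 0.0334). *LGALS3* encodes galectin-3, and had 79.4 and 45.7 CPM in U87MG and 53.5 and 34.8 CPM in U251MG. None was past 2-fold, and the medians were 0.18 and 0.13.

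Among 8 nectins and relatives of *PVR*, 5 were tested, of which *CADM4*, an adhesion gene, rose (shared log2 fold change 0.82, adjusted p = 0.0458, and not called by DESeq2). *CADM4* had 10.8 and 19.4 CPM in U87MG and 11.8 and 21.1 CPM in U251MG. The genes past 2-fold were 1 in each cell line, *CADM1* higher in U87MG (log2 fold change 1.65) and *NECTIN4* lower in U251MG (24 and 14 counts). The medians were 0.77 in U87MG and -0.041 in U251MG.

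Of 9 partners and modifiers of CD47, 8 were matched and 6 tested, with 0 called in edgeR, 2 lower and 0 higher at an unadjusted p below 0.05 and 1 lower in DESeq2. *THBS1*, which encodes thrombospondin-1, a ligand of CD47, had 2745 and 1794 CPM in U87MG and 3981 and 1952 CPM in U251MG (shared log2 fold change -0.84, adjusted p = 0.103). It was past 2-fold lower in U251MG (-1.03), and *SIRPA* was past 2-fold higher in U87MG on 2 and 21 counts. The medians were -0.27 and -0.13.

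Most receptors that such ligands engage on lymphocytes had few counts. Of 12 receptor genes 10 were matched, *PDCD1* had 0 counts in all 4 libraries, which allows up to 3 counts in each, and *HAVCR2*, which encodes TIM-3, had 3, 6, 3 and 2 counts. *PVRIG* was the best counted of the list, with 125, 260, 161 and 278 counts. *BTLA* was past 2-fold higher in both cell lines on 3 and 18 counts in U87MG and 2 and 12 counts in U251MG, and *TIGIT* in U251MG on 4 and 38 counts. In the shared test 2 were tested and 0 called, also at an unadjusted p below 0.05 and by DESeq2. Among the glial markers *GFAP*, an astrocyte filament gene, and *FABP7* rose (shared log2 fold change 1.73 and 1.31, adjusted p = 0.00783 and 0.0168).

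**Figure D4:**
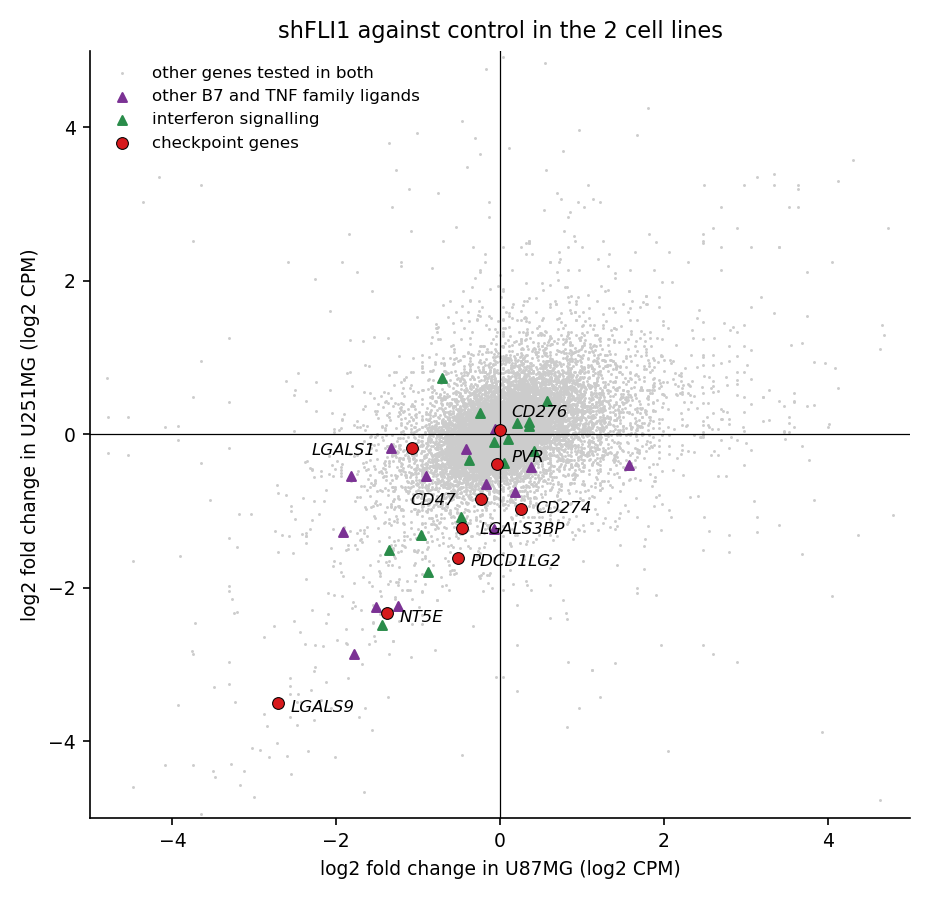
Log2 fold change of shFLI1 against control in U87MG (horizontal axis) and U251MG (vertical axis), with 1 point per gene for the 16384 genes tested in both, of which 21 lie outside the axes. Circles are the 9 checkpoint genes, and triangles are interferon signalling genes and the list of other ligands, mostly but not only of the B7 and TNF families. *LGALS9*, at -2.71 and -3.51, and *NT5E*, at -1.38 and -2.33, lie in the lower left, and *CD274*, at 0.25 and -0.98, in the lower right.

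For *CD274*, *LGALS9* and *LGALS3BP*, the genes with the most similar pattern were sought by the Euclidean distance of log2 CPM centred over the 4 libraries, among 9771 genes with at least 100 counts in every library. With 4 libraries such likeness is a description only. Nearest to *CD274* were *FJX1* (distance 0.11), *NUAK2* (0.11) and *LBH* (0.15). Nearest to *LGALS9* were *TXNIP* (0.17), *IFITM1* (0.19) and *HLA-C* (0.34). Nearest to *LGALS3BP* were *ITGA5* (0.15), *E2F1* (0.22) and *P3H2* (0.25).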

How the data were processed

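Libraries were grouped by the treatment in the sample labels. For alignment to GRCh38 the authors used HISAT2, and for FPKM values StringTie. Their deposited table gives an estimated count per RNA and library, not normalized and not always whole, from a tool not given in the sources used here, and the authors' FPKM per RNA. Counts of 185042 linear RNAs were summed by gene identifier and rounded. The RefSeq table gave a symbol for 23775 of 24411 Entrez identifiers. Circular RNAs and 10 further value columns were not used. Summed depth was 12229780 to 28891055 counts, and such estimates may divide reads between transcripts or near-identical genes.

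Counts were scaled by TMM, with a prior count of 2 for fold changes. The shared effect of shFLI1 and the cell line difference were tested with edgeR 4.0.16 (quasi-likelihood, filterByExpr, Benjamini-Hochberg over all genes tested) in R 4.3.3. DESeq2 1.42.0, other scalings, filters, prior counts, thresholds, thinned depth and FPKM were alternatives. Intervals of fold changes are 95% Clopper-Pearson intervals, and a count of 0 was read as at most 3 counts. Scripts were tested on simulated counts. The members and lists were chosen with earlier results of these data known. Named were all members, the listed genes past 2-fold the same way in both cell lines or past an adjusted p of 0.05 (at most 5 per list), *FLI1*, and the 3 genes of nearest pattern. Other genes named, and those named to account for a count or a marker level, were chosen after their values were seen. Some genes and sequences within these rules are not reported here.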

Additional observations from a re-analysis of the deposited data

Results flagged for a closer look

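*CD274* had log2 fold changes of opposite sign in the cell lines, 0.25 in U87MG and -0.98 in U251MG. It is listed because the shFLI1 library was above its control in one cell line and below it in the other. With 1 library per group the difference was not tested, and the lower bound of the U87MG interval, 0.0045, was close to 0.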

How the results depend on the processing

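Of 126 member fold changes under other scalings, prior counts, depth or FPKM, 89 stayed within the counting interval of the reported value and 37 did not, 7 of them with the other sign. Scaling to total counts moved the median of all genes from 0.059 to 0.22 in U87MG and from 0.041 to 0.11 in U251MG. *CD274* ranged from 0.20 to 0.78 in U87MG and from -0.99 to -0.34 in U251MG, *CD47* from -0.26 to 0.15 in U87MG and *PVR* from -0.066 to 0.13 in U87MG. Past 2-fold, *LGALS1* in U87MG was lost with total counts (-0.92) and with FPKM (-0.97), and *PDCD1LG2* in U251MG with log2(FPKM + 1) (-0.92). *LGALS9* and *NT5E* stayed more than 2-fold lower in both cell lines under every scaling, prior count, depth and FPKM alternative run. Of 53 shared tests of members, 47 kept side and direction. *NT5E* (adjusted p = 1.00) and *LGALS9* (0.663) were lost without the cell line block, where edgeR called 0 of all genes and 725 had an unadjusted p below 0.05, and the cell line difference is then part of the spread. *PDCD1LG2* (0.0129), *LGALS1* (0.00670) and *LGALS3BP* (3.4e-05) passed when genes with at least 1 count were kept, and *LGALS3BP* (0.00234) in DESeq2. For the cell line difference, *NT5E* (0.459) and *LGALS9* (0.628) were lost without the knockdown block, and *LGALS3BP* (0.00925) passed with at least 1 count.

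Counts of genes moved by over 1.5 times as follows. Genes past 2-fold higher in U87MG were 1740, and 1152 at thinned depth. A minimum of 100 counts gave 290 higher and 265 lower in U87MG and 135 higher and 265 lower in U251MG. A minimum of 1 count gave 3983 and 2218 in U87MG and 2744 and 2567 in U251MG, and a 1.5-fold threshold 3227 and 1722 in U87MG and 2373 and 1613 in U251MG, against 772 lower in U87MG and 1015 higher and 763 lower in U251MG as reported. The shared test called 509 genes, and 1303 with at least 1 count. The cell line difference called 3100 genes, 531 without the knockdown block and 1813 in DESeq2. Except where the filter, threshold or block itself changes the genes or samples compared, the cause was not tested. With 1 library per group no library could be left out, and counts per kilobase were not run, since the table gives no lengths. With the shFLI1 libraries thinned to control depth, the log2 fold change in U87MG and U251MG was -2.77 and -3.48 for *LGALS9*. For *NT5E* it was -1.44 and -2.28. The knockdown and anything else that differed between the 2 libraries of a cell line cannot be told apart with 1 library per group. Few counts limited *PDCD1LG2* most.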
